A study of Drosophila melanogaster with 7 samples.

Results

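The genes described here are the protein-coding genes of the Drosophila melanogaster X chromosome whose RNA was listed in a comparison of larval brains with and without knockdown of the chromatin remodeller ISWI. They are the 301 protein-coding rows of the authors' deposited table that lie on chromosome X with a start up to 22 Mb (build BDGP6), out of 2366 rows in all. Of 314 X-linked protein-coding rows, 13 were set aside. These were 5 genes excluded by name (y, v, corolla, TrxT and CG15930), 4 with excluded name prefixes, and 4 that start beyond 22 Mb. The study sequenced RNA from the central brain and ventral nerve cord of mid-third-instar larvae, 4 days after egg lay at 25 °C. In 4 ISWI RNAi libraries (elav-GAL4>UAS-ISWI RNAi) the larvae carried elav-GAL4, a neuronal driver of the yeast activator GAL4, and a UAS transgene that makes a hairpin RNA against Iswi. The 3 control libraries (elav-GAL4; +) came from larvae that carried the same driver and no hairpin. The driver is thus shared by both groups, the hairpin acts in neurons while whole tissue was sequenced, and each library pooled 40 brains. The labels give no sex for the larvae, and the header of the fold-change column calls the control attp2.

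ISWI is an ATPase that slides nucleosomes along DNA, and in flies it works in several complexes, among them NURF, ACF and CHRAC. The X chromosome is a particular case in flies because males have a single copy. In males the dosage compensation complex, which contains the noncoding RNAs roX1 and roX2, coats the X and raises its transcription. In the salivary glands of male larvae that lack Iswi, the polytene X chromosome is known to be short and wide, unlike the autosomes.

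What the table can show is set by how it was cut. It gives 1 mean normalised count, 1 log2 fold change of ISWI RNAi over control and 1 p per gene, and the largest p in it is 0.1 after rounding. Library by library values were not used here. Sequencing depth is therefore unknown, and replicate spread enters through the authors' p alone. Adjusted p-values of the authors' deposited table imply 10775 tests, so 8463 tested genes with a larger p are not analysed here. The number of X-linked genes tested is therefore not known, and shares below are given of listed genes or of annotated genes. Of the 301 X-linked members, 2 had an adjusted p of 1, at mean counts under the authors' filter, and 299 count as tested. As a check of the labels, Iswi itself, which lies on 2R, had a log2 fold change of -2.03 per the authors' deposited table. The neuronal gene elav, which is X-linked, is not among the rows of that table.

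With an adjusted p under 0.05 taken as a call, 49 X-linked members were called per the authors' deposited table, 11 higher and 38 lower in ISWI RNAi. Across the whole comparison 4.65% of tested genes were called, 2.06% higher and 2.59% lower. The X-linked calls were 2.35% of 2085 annotated X-linked protein-coding genes chosen by the same rule, against 3.29% of 11420 annotated protein-coding genes on 2L, 2R, 3L and 3R. Shares of annotated genes include genes that were not tested and cannot be read against the shares of tested genes. Most changes of X-linked calls were small, with a median log2 fold change of -0.38 among the 38 lower and 0.70 among the 11 higher calls per the authors' deposited table. Autosomal protein-coding calls were 168 higher and 208 lower, with medians of 0.67 and -0.37. Among the 49 member calls, 3 lower and 4 higher genes had log2 changes of 1 or more in size. Further members with values past that size were not called. The split between higher and lower calls depends on where 0 is set: with fold changes centred on the median of listed autosomal protein-coding genes, a shift of -0.09, it was 46 higher and 17 lower. With the median of autosomal genes away from the centromeres, 0.11, it was 5 higher and 164 lower. A list without small changes has its median at the edge of the gap around 0, on one side or the other.

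**Figure D1:**
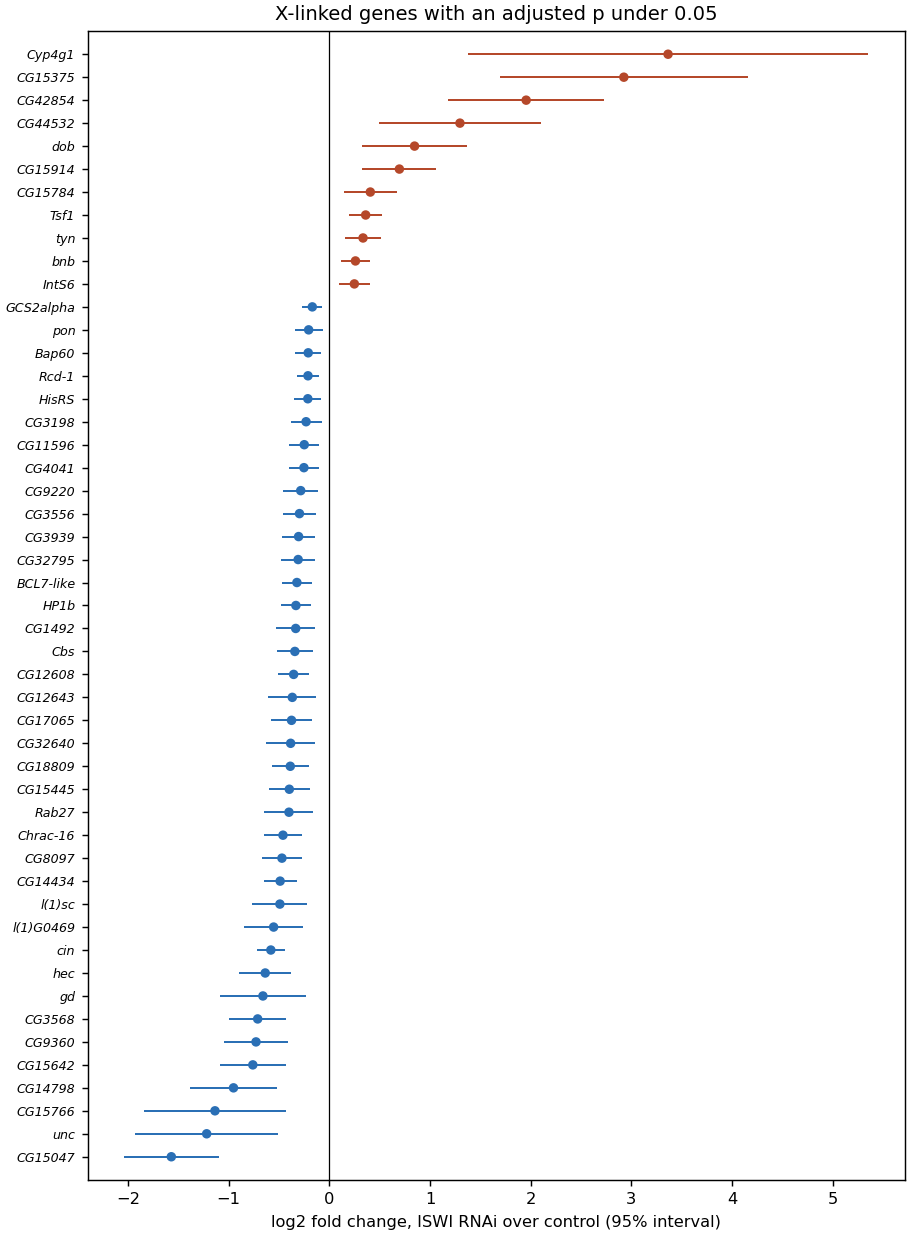
Log2 fold change of ISWI RNAi over control (x axis) for the 49 called X-linked genes, with points for the authors' values and lines for 95% intervals from the standard error implied by the authors' p. The 38 lower genes, blue, lie between -1.57 and -0.17, and the 11 higher genes, red, lie between 0.25 and 3.36.

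Of 23 X-linked genes on a list of chromatin and transcription machinery, 2 were among the lower calls, Chrac-16 and HP1b. Across the comparison 2.59% of tested genes were called lower, and 2 genes are too few to set the list apart. Chrac-16 (chrX:12017225-12017961) encodes a histone-fold subunit of CHRAC, a complex built on ISWI, and stood at 72.7% of the control level per the authors' deposited table (log2 fold change -0.46, implied standard error 0.09, adjusted p 2.9e-05). HP1b, a paralogue of the heterochromatin protein HP1a, fell by 0.33 on the log2 scale per that deposited table (chrX:9081063-9082746, adjusted p 0.00019). Of that list the authors' deposited table held 4 genes, all negative, while 9.78% of all annotated X-linked genes were listed as negative. The other two, su(w[a]), a splicing regulator, and His3.3B, a gene for the replacement histone H3.3, had log2 fold changes of -0.24 and -0.14 and adjusted p of 0.14 and 0.2 in that table of the authors. Outside the list, and picked from the calls after their values were seen, Bap60, a subunit of the Brahma remodelling complex, fell by 0.21 and BCL7-like, whose human relatives are subunits of the corresponding BAF complex, by 0.32 per the authors' deposited table. Among the opposite calls IntS6, a subunit of the Integrator complex that trims small nuclear RNAs, rose by 0.25 per the authors' deposited table (1.19-fold, adjusted p 0.023).

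cin (cinnamon) encodes an enzyme of molybdenum cofactor synthesis, and its adjusted p of 3.2e-15 was the smallest among X-linked members of the authors' deposited table. It stood at 66.9% of the control level (chrX:255674-258469, log2 fold change -0.58, 95% interval -0.71 to -0.45, mean normalised count 1543). CG15047 had the lowest fold change of any called member, 33.7% of the control level per the authors' deposited table. Its mean normalised count was 61.8 (chrX:18528683-18529593, interval -2.03 to -1.11). CG14434 followed cin and CG15047 by adjusted p per that deposited table, with 1.2e-07 at 71.3% of control (chrX:6851909-6867194). The interval of CG15047 did not overlap that of cin, while the intervals of cin and CG14434 overlapped.

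Several of the other lower calls belong to named genes. l(1)sc, a proneural bHLH factor of the achaete-scute complex, stood at 71.2% of the control level per the authors' deposited table (chrX:409721-410817, adjusted p 0.0088). pon (partner of numb), which helps to place Numb at one side of dividing neuroblasts, stood at 86.8%. unc (uncoordinated), a basal body protein of ciliated sensory neurons and sperm, fell by 1.22 in log2 per the authors' deposited table, with an implied standard error of 0.36 and a mean normalised count of 31.9. hec (hector), a G protein-coupled receptor with a role in male courtship, fell by 0.64, and Rab27, a small GTPase of vesicle release, by 0.40 per that deposited table. gd, a serine protease of embryonic dorsoventral patterning, fell by 0.66 with an adjusted p of 0.042 per the authors' deposited table. Some housekeeping genes were called with small changes. HisRS (histidyl-tRNA synthetase), Rcd-1 (a subunit of the CCR4-NOT complex) and GCS2alpha (glucosidase II of the endoplasmic reticulum) stood at 86.3%, 86.4% and 89% of the control level per the authors' deposited table. Their mean normalised counts were 2411, 3614 and 8243.

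Most of the lower calls had no gene name in the deposited table beyond a CG number, 22 of 38, and 5 of the 11 higher calls. Apart from CG15047 and CG14434, the lowest of them by log2 fold change were CG15766, CG14798, CG15642, CG9360, CG3568 and CG8097, at -1.13, -0.95, -0.76, -0.73, -0.71 and -0.47 per the authors' deposited table. The reference annotation now names CG15766 AgmNAT, an N-acetyltransferase of agmatine, and names CG9220, at -0.28, Chsy. It gives CG14798 a noncoding symbol (CR14798), so its call as protein-coding rests on the authors' annotation. l(1)G0469, an essential gene, had a log2 fold change of -0.55 per the authors' deposited table.

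Among the 11 higher calls were genes of low counts and large changes. Cyp4g1, a cytochrome P450 of hydrocarbon synthesis in oenocytes, had the highest fold change of any X-linked call, 3.36 in log2 per the authors' deposited table, where its implied standard error was 1.01 and its interval ran from 1.38 to 5.34. CG15375, CG42854 and CG44532 rose by 2.92, 1.95 and 1.30 per that deposited table, at mean normalised counts of 15.9, 30 and 24.4. Those 3 counts are under 50, so the size of these changes is loosely known: the interval for CG15375 runs from 1.70 to 4.14. dob, a patatin-domain lipase related to brummer, rose by 0.85 and CG15914 by 0.70 per the authors' deposited table. The better measured higher calls had smaller changes. CG15784, Tsf1 (an iron-binding transferrin), tyn (trynity, a zona pellucida domain protein) and bnb (bangles and beads) rose 1.33-, 1.28-, 1.26- and 1.2-fold per the authors' deposited table, at adjusted p of 0.039, 0.00032, 0.0033 and 0.0062. Oenocytes lie outside the dissected tissue, and how much of other tissues each pool held was not tested.

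Called genes were spread along the whole chromosome. Each of the 11 windows of 2 Mb held at least 1 call, and each held more negative than positive members of the authors' deposited table. The first window, 0 to 2 Mb at the tip of the chromosome, had 46 listed members of 186 annotated genes (24.7%), 18 positive and 28 negative. In the other windows 11.5% to 16.7% of annotated genes were listed, against 14.4% of all annotated X-linked and 15.9% of annotated autosomal genes. For the whole comparison 21.5% of tested genes were listed, which cannot be read against shares of annotated genes. The window from 4 to 6 Mb had 8 calls, 3 higher (CG15375, CG15784 and IntS6) and 5 lower. The window from 16 to 18 Mb had 1 call, CG42854, among 24 listed members. Across windows the median log2 fold change of listed members ranged from -0.21 to -0.13 per the authors' deposited table. Between start position and fold change the Spearman rho was -0.06 across 301 genes, which share the same libraries.

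**Figure D2:**
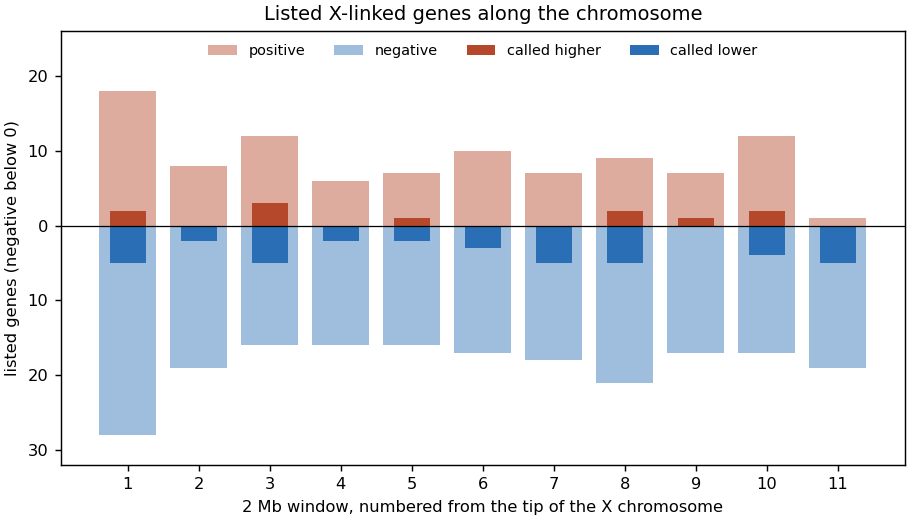
Number of listed X-linked genes (y axis) in 11 windows of 2 Mb numbered from the tip of the chromosome (x axis), with positive fold changes above 0, negative ones below 0 and calls in darker colour. Negative members outnumber positive ones in every window, and window 11 holds 1 positive and 19 negative members.

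The window nearest the centromere had the lowest positive share. From 20 to 22 Mb, 1 of 20 listed members was positive per the authors' deposited table (5%), against 27.3% to 42.9% in the other 10 windows. That member, CG34331, had a mean normalised count of 22.5 and was not called (log2 fold change 1.18, adjusted p 0.3). The remaining 19 are consecutive in the list, from AnxB10 to CG32857 (chrX:20171445-21617617), and all are negative. Of them 5 were called: CG17065, Cbs, unc, CG15445 and GCS2alpha. The next longest run of one sign on the X held 8 members, from Bap60 to Yippee (chrX:13157445-13387417). On the autosomes the longest runs of the authors' deposited table were 23 negative genes at the start of 2R (0.855 to 5.55 Mb) and 17 at the end of 3L (23.1 to 27.9 Mb), both next to centromeres. The members nearest the 22 Mb limit of the rule were mst, Cyp6t1, GCS2alpha and CG32857, at -0.22, -2.42, -0.17 and -0.35 per the authors' deposited table. Beyond it came CG14615, CG14618, CG17600 and su(f), at -0.28, -0.19, -0.32 and -0.11, of which CG17600 was called (adjusted p 0.026).

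Some called genes are neighbours. Of 9 pairs of called genes that are next to each other in the list, 8 were lower in both members, and 38 of all 49 calls were lower. CG8097 and CG9220 lie 39 bases apart on opposite strands and had log2 fold changes of -0.47 and -0.28 per the authors' deposited table. unc and CG15445 lie 244 bases apart, with -1.22 and -0.40. Between gd, CG1492 and Chrac-16 the gaps are 21946 and 5013 bases, and all 3 were lower, at -0.66, -0.33 and -0.46 per the authors' deposited table. CG32640 (chrX:13178005-13178523, adjusted p 0.029) and the next listed gene, CG32641, have the same span of 519 bases and log2 fold changes of -0.38 and -0.51. Their reads may not be separable if the copies are alike, so the call of CG32640 is uncertain. Among listed X-linked neighbours under 5 kb apart, 47 of 72 pairs had the same sign (65.3%), against 165 of all 300 X-linked neighbour pairs (55%). On the autosomes 56.1% of 547 pairs under 5 kb apart did, against 54.1% of all 1811. The X-linked and autosomal shares are not comparable, because 32.2% of the X-linked and 49.6% of the autosomal listed genes were positive and a list mostly of one sign holds more pairs of that sign. None of these differences was tested.

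Overlap between genes limits some of these calls, since the way reads were assigned to genes is not stated in the labels or the table. Of 301 members 144 overlap another annotated gene in span, and 26 of the 49 called ones do. The call of smallest adjusted p, cin, overlaps the span of asRNA:CR43906 on the same strand and that of CG13377 on the opposite strand. Also on the same strand, CG15047 and HisRS overlap the span of Bx, CG18809 that of COX6B, and Cyp4g1 that of CG32816. Chrac-16, CG9360 and CG42854 overlap genes of the opposite strand (regucalcin, m and f). Without overlapping members, 5 higher and 18 lower calls were left.

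The roX genes lie among these members. In the authors' deposited table roX1 had a log2 fold change of 0.36 (adjusted p 0.006) and roX2 one of 1.30 (adjusted p 4.7e-13). Within 1 Mb of roX1, 10 of 24 listed members were positive, and within 1 Mb of roX2 7 of 23 were, with median log2 fold changes of -0.14 and -0.15 per the authors' deposited table. Those medians lie within the range of the windows. Within 0.5 Mb, 7 of 13 members near roX1 were positive and 4 of 15 near roX2, with medians of 0.11 and -0.14 per the authors' deposited table. With 7 of 13 positive, the median falls at the edge of the gap around 0 in the list. It therefore cannot set the members near roX1 apart, and the difference was not tested. Of 7 X-linked genes of dosage compensation and sex determination (among them Sxl and mof), 0 were listed, against 14.4% of all annotated X-linked genes.

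Over all 301 members, 97 had a positive and 204 a negative fold change per the authors' deposited table (32.2% positive, median -0.16). On the autosomes 901 of 1815 listed protein-coding genes were positive (49.6%, median -0.09), and 51.1% of 1762 were when genes next to the centromeres were left out. By arm the positive share was 51.1% on 2L, 49.8% on 2R, 47.9% on 3L and 49.8% on 3R. Over the comparison 10.2% of tested genes were listed as positive and 11.2% as negative. Of annotated X-linked genes 4.65% were listed as positive and 9.78% as negative, against 7.89% and 8% on the autosomes. The share listed in either direction was 14.4% on the X and 15.9% on the autosomes. The roX1 and roX2 RNAs had the opposite sign to most listed members, at 0.36 and 1.30 per the authors' deposited table. Their part in the direction on the X was not tested. The knockdown, the stocks and the unknown sex of the larvae cannot be told apart as sources of the direction on the X, since each group is 1 genotype.

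The direction of listed members differed with level. Members ranged in mean normalised count from 1.18 to 37946, with a median of 633, and the fold change needed to be listed shrank as the count rose (Spearman rho -0.946 between mean count and implied standard error over 301 genes). Of 43 members with a mean count under 50, 34 were positive per the authors' deposited table (79.1%, median 1.41), close to the 76.9% of 324 autosomal genes. Between 50 and 200 the positive shares were 41.4% of 29 X-linked and 66.2% of 228 autosomal genes. Between 200 and 1000 they were 22.1% of 122 and 44% of 596, and between 1000 and 5000 they were 23.3% of 90 and 38.9% of 552. At 5000 or more they were 17.6% of 17 X-linked and 20.9% of 115 autosomal genes. The gap between the X-linked and autosomal shares was thus wider in the 3 middle classes than in the lowest and highest, and it was not tested.

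**Figure D3:**
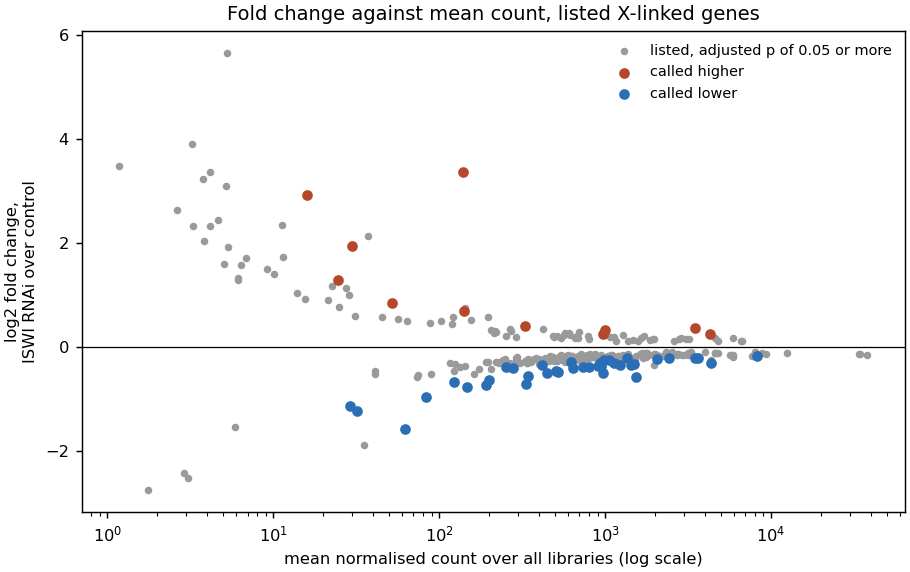
Log2 fold change of ISWI RNAi over control (y axis) against mean normalised count (x axis, log scale) for the 301 X-linked members, with calls in colour. Most of the large positive values sit at counts under 50, while Cyp4g1, at 3.36, has a count of 139.8. Most members over 200 lie below 0, and the empty band around 0 is where p exceeds the limit of the table.

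The most abundant members by count per kb of exon were sta (a ribosomal protein of the small subunit, 28360) and Cyp1 (a peptidyl-prolyl isomerase, 27760). Their log2 fold changes were -0.15 and -0.14 per the authors' deposited table, at adjusted p of 0.11 and 0.28. Other members over a mean normalised count of 5000 included arm (beta-catenin), CCT2 (a chaperonin subunit), nonA (an RNA-binding protein) and Ubi-p5E (polyubiquitin), at -0.12, -0.16, -0.16 and -0.14 per that deposited table. Of the 17 members in that class 3 were positive, HIP-R, trol and Fas2, at 0.17, 0.12 and 0.11, and GCS2alpha was its 1 call.

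A larger share of the long members than of the short ones was positive. Members spanned 458 to 118734 bases, with a median of 2628. Under 2 kb 25 of 103 were positive per the authors' deposited table (24.3%), from 2 to 5 kb 28.2% of 124, and from 5 to 10 kb 25.7% of 35. From 10 to 50 kb 65.6% of 32 were positive, and all 7 of 50 kb or more were. On the autosomes the same classes held 43.4%, 43.1%, 55.7%, 71.4% and 62% positive genes. Under 10 kb the share was thus 26.3% on the X and 45.4% on the autosomes, while at 10 kb or more it was 71.8% of 39 and 69.9% of 316. Whether the difference itself depends on length was not tested. Of the 49 called members 47 were under 10 kb, as were 262 of the 301 listed members and, on the autosomes, 315 of 376 calls. At 10 kb or more 2 of 39 listed X-linked members were called, tyn higher and CG14434 lower, and 61 of 316 listed autosomal genes were, a difference that was not tested.

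**Figure D4:**
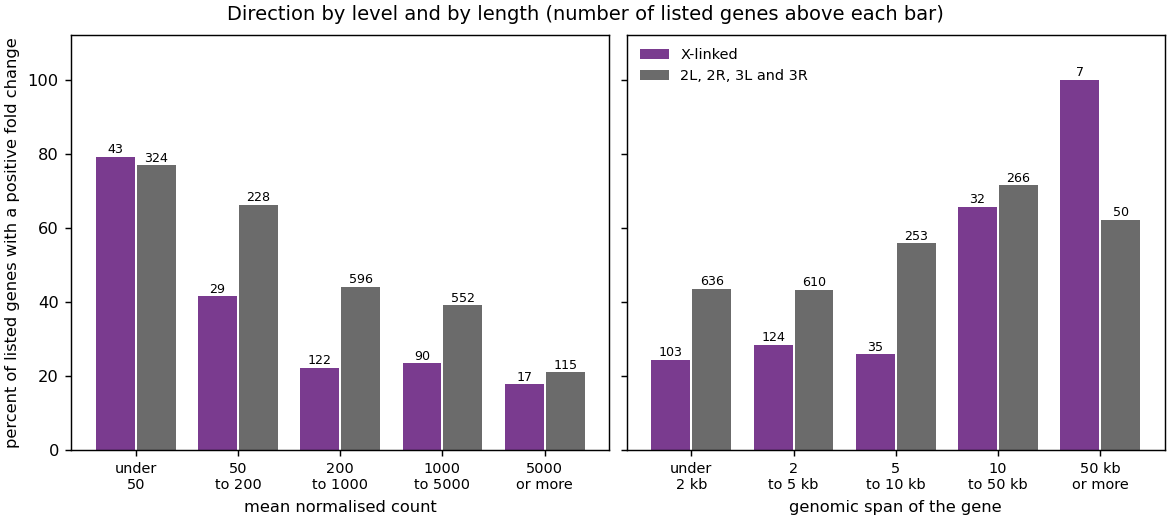
Percent of listed genes with a positive fold change (y axis) in classes of mean normalised count (left) and genomic span (right), for X-linked members (purple) and protein-coding genes of 2L, 2R, 3L and 3R (grey), with the number of listed genes above each bar. X-linked bars are lower in the classes from 50 to 5000 counts and under 10 kb, and all 7 X-linked genes of 50 kb or more were positive.

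Set against the annotation, 10.7% of long X-linked genes were listed, against 20.8% of long autosomal ones, and the lower share held for both signs. Of 363 annotated X-linked genes of 10 kb or more, 7.71% were listed as positive and 3.03% as negative, against 14.5% and 6.24% of 1522 autosomal ones. Of 1722 X-linked genes under 10 kb, 4.01% were positive and 11.2% negative, against 6.87% and 8.27% of 9898 autosomal ones. How many of the annotated genes were tested in each class is not known, so these are shares of the annotation.

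**Figure D5:**
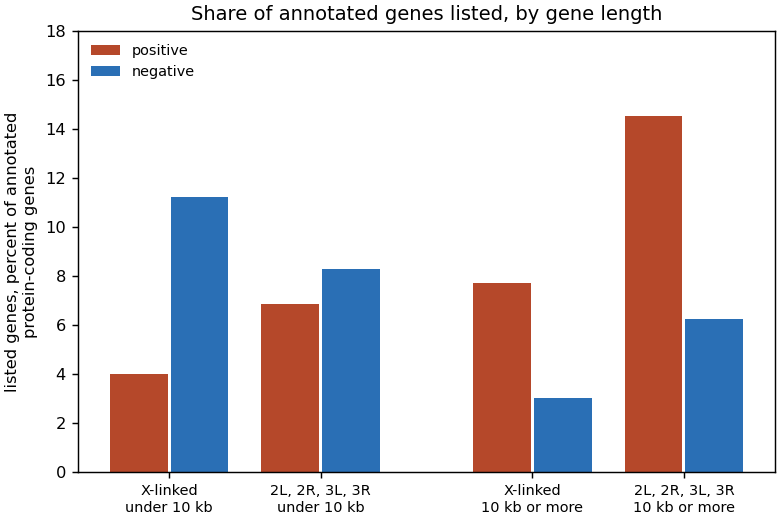
Listed genes as a percent of annotated protein-coding genes (y axis), by sign of the fold change, for X-linked and autosomal genes under 10 kb and of 10 kb or more. Short X-linked genes show 11.2% negative against 4.01% positive, and long X-linked genes 3.03% negative against 7.71% positive.

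The 7 longest members are mostly genes of the neuronal surface and the matrix. They were kek5 (a leucine-rich repeat and immunoglobulin protein), CG42340, AstA-R1 (a receptor for the peptide allatostatin A), trol (perlecan), Fas2 (fasciclin 2, an adhesion molecule of axon bundles), sdk (sidekick, an immunoglobulin adhesion protein) and tyn. Their log2 fold changes were 0.16, 0.24, 0.31, 0.12, 0.11, 0.18 and 0.33 per the authors' deposited table, and tyn alone was called, while the other adjusted p ran from 0.11 to 0.46. Of 18 X-linked genes of adhesion and axon guidance 5 were listed, all positive, with bnb the 1 call. Among all annotated X-linked genes 14.4% were listed, 4.65% as positive, and 2.35% were called. bnb is known as a gene of glia rather than of adhesion, and the other members of that list in the authors' deposited table (sdk, trol, Fas2 and mys, an integrin subunit, at 0.12) had 0 calls, at adjusted p of 0.30 to 0.40. Of 21 X-linked ion channels and transmitter receptors 2 were listed, both positive and not called: Nmdar2, a glutamate receptor subunit, at 0.23 and AstA-R1. Over all listed rows the median was -0.10 per the authors' deposited table.

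The listed genes of a cell division list were negative and not called. Among all annotated X-linked genes 14.4% were listed, 9.78% as negative, and 2.35% were called. Of 19 X-linked genes of cell cycle and replication 5 were listed, 0 positive and 5 negative, with a median log2 fold change of -0.17 per the authors' deposited table, and 0 were called. feo, a microtubule bundler of the central spindle, stood at -0.23 with an adjusted p of 0.085. Zw10 of the kinetochore, the helicase subunits Mcm3 and Mcm6, and the repair nuclease mei-9 stood at -0.17, -0.13, -0.10 and -0.23 per the authors' deposited table. Not every gene of cell division had that sign: mud (a spindle orientation protein) and Axs (a protein of the meiotic spindle), which are not on the list, had values of 0.16 and 0.22 per that deposited table and were not called. The mean normalised counts of the 5 list members, 691 to 3298, lie in classes where most listed members on the X were negative.

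The other lists held few listed members. Of all annotated X-linked genes 14.4% were listed and 2.35% called, and these lists are too small to be set apart from those shares. Of 28 X-linked neuronal transcription factors and RNA-binding proteins 4 were listed, 2 positive and 2 negative, with l(1)sc the 1 call. HLH4C, dx (a regulator of Notch) and lz (a Runx factor of eye and blood cells) had values of -0.37, 0.16 and 1.14 per the authors' deposited table. Of 26 signalling genes 5 were listed, 2 positive (dx and amn) and 3 negative (arm, Raf and Rala), and 0 were called. Of 18 clock, learning and behaviour genes 2 were listed (nonA and amn), of 15 genes of glia and metabolism 1 (Pfrx, at 0.23), and of 7 of protein folding and stress 2 (Ubi-p5E and Pink1, at -0.14 and -0.18), with 0 calls.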

How the data were processed

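RNA was sequenced as single reads of 100 bases from libraries made with a strand-specific kit, per the labels' protocols. The submitters' processing notes name STAR 2.5.0b, DESeq2 and the build BDGP6. Read assignment to genes and use of strand are not given in the sources used here. The authors deposited 1 table with a base mean (a signal, the mean of normalised counts over all libraries), a log2 fold change of ISWI RNAi over control, a p-value, an adjusted p-value, coordinates and a gene length for each gene. Nothing was refitted. The planned fits on counts per library could not be made from it.

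Computed here, with Python 3.11.15, pandas 2.3.3, numpy 2.4.6 and scipy 1.17.1, were counts by sign and call, medians, a standard error implied by each log2 fold change and p (taking p as that of a Wald test) with 95% intervals, and the number of tests implied by the adjusted p. The implied standard error and number of tests were tried on simulated data whose p came from the same formula, without filtering. That checks the arithmetic and not how the authors' p were made. The annotation (Ensembl, BDGP6) held 298 of the 301 members, 296 at the same position, and gave 2085 X-linked genes by the same rule. Autosomal genes were chosen with the same name exclusions, and those next to centromeres were taken as starting after 22 Mb on 2L or 23 Mb on 3L, or ahead of 5.4 Mb on 2R or 4.2 Mb on 3R. Level classes have limits of 50, 200, 1000 and 5000 counts, and length classes of 2, 5, 10 and 50 kb. Members, classes and lists were chosen with earlier results of these data known, and lists were matched by symbol and trimmed of misplaced genes afterwards. Named by rule were the 12 highest and 12 lowest calls whose mean count reached 50. Only 8 higher calls reached that count. The rule also took the 4 calls of smallest adjusted p in each direction and listed members of the gene lists. Several of these genes are given with a log2 fold change alone. Other called members, genes of neighbouring pairs, and the longest and the most abundant members were named after their values were seen. The authors' p-values set each fold change against its estimated error over the libraries, which the labels describe as biological replicates.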

Additional observations from a re-analysis of the deposited data

How the results depend on the processing

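The count of higher calls, 11, became 20 at an adjusted p of 0.1, 6 at 0.01 and 5 without members that overlap another annotated gene. The count of lower calls, 38, became 24 at 0.01 and 18 without overlapping members. With fold changes centred on the autosomal median, calls were 46 higher and 17 lower, and 21 of the 49 calls were no longer past the limit while 0 changed sign. Centred on the median of autosomal genes away from the centromeres, an alternative chosen after seeing the data, they were 5 higher and 164 lower. Both medians sit at an edge of the gap around 0 in the list, and only listed members could be called. These splits therefore cannot show where 0 lies. Positive members, 97, became 63 at a mean count of at least 50 (24.4% positive), 64 at a listed p under 0.05 and 49 without overlapping members, and negative ones became 108 without them. The positive share beyond 20 Mb became 0 at a mean count of at least 50, and 0 in the window of 1 Mb beyond 21 Mb. The positive share under 2 kb became 13.6% at a mean count of at least 50, also chosen after seeing the data. All 22 windows of 1 Mb held more negative than positive members. The other alternatives run (left-out genes put back, X up to 21 Mb, exonic length, count per kb) kept counts within 1.5 times and shares within the binomial interval. Fits by edgeR or DESeq2 and fits leaving out a replicate were not run, because values per library were not used. No paired analysis was possible because the table holds 1 value per gene and no value per library. Depth per library is unknown, and the smallest change called among members was 0.17 on the log2 scale.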

Other observations

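The listed X-linked members included genes known from the germline and other tissues, and those named here were not called. dhd, a thioredoxin of the female germline, had a log2 fold change of 3.37 at a mean normalised count of 4.18 (adjusted p 0.14) per the authors' deposited table. It lies at chrX:5312171-5313125, between TrxT and CG15930, which start at 5310581 and 5315130 and were left out of the members, with values of 3.70 and 5.72 per that deposited table. otu (ovarian tumour) had a value of 1.58 at a mean normalised count of 6.41, and Yp3, a yolk protein gene, one of 2.14 at 37.1 per the authors' deposited table. gt, a gap gene of the embryo, had a value of -0.51 at 41.1. phm, a Halloween gene of ecdysone synthesis in the ring gland, had a value of -0.34 at a mean normalised count of 1984 (adjusted p 0.11), and wupA (muscle troponin I) one of 0.52 at 155 (adjusted p 0.37), per the authors' deposited table.

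Just outside the threshold of 0.05 stood HIP-R, a chaperone cofactor of Hsc70, at 0.17 and CG15814 at -0.21, both with an adjusted p of 0.051 per the authors' deposited table. Dredd, a caspase of the immune deficiency pathway, had a value of 0.30 (adjusted p 0.063), CCT2 one of -0.16 (adjusted p 0.066) and peb (hindsight), a zinc finger factor, one of 0.75 (adjusted p 0.089) per that deposited table. By strand, 33.5% of 158 listed members on the plus strand and 30.8% of 143 on the minus strand were positive per the authors' deposited table.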
